A study of Homo sapiens with 36 samples.

Results

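LPS-stimulated THP-1 cells depleted of NR4A3 were compared at 10% and 5% CO2, using the 6 libraries of these conditions out of the 36 in the series. THP-1 is a human monocytic leukaemia cell line. The cells were stably transduced with lentivirus carrying a short hairpin RNA against NR4A3 (shNR4A3), were placed for 4 h in buffered DMEM at 5% or 10% CO2, and received LPS at 2.5 µg/mL for the last 2 h. All 6 libraries therefore share the NR4A3 hairpin and the LPS, and each CO2 level holds 3 replicates. The labels give 1 line per hairpin, so the hairpin and the line that carries it cannot be told apart. Set beside them are shNR4A3 cells without LPS and cells with a non-target hairpin (shNT) with LPS, again with 3 libraries at each CO2 level. The study describes its replicates as individual experiments, and the labels do not say whether these were separate cultures or days, so the p-values measure the spread between these libraries.

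Hypercapnia is a raised level of carbon dioxide, and buffering of the medium separates the gas from the acidity that it causes. LPS, a component of the wall of Gram-negative bacteria, binds TLR4 on monocytes and switches on NF-kB, the mitogen-activated protein kinases and a wave of cytokine genes. NR4A3 is 1 of 3 related orphan nuclear receptors that are induced early by such stimuli and bind DNA without a known natural ligand. Heat shock proteins, which recur among the results, are chaperones that fold newly made or damaged proteins and are switched on by the factor HSF1.

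The 6 libraries held 16171161 to 21004337 counts at 5% CO2 and 19028859 to 20122525 counts at 10% CO2. Among them 2 libraries stood apart. Replicate 1 at 10% CO2 had a count in 32956 genes, where the other 5 had one in 27237 to 28509, and 14506 of its genes rested on 1 to 5 counts. On the first principal component, which held 35.06% of the variance, the 10% libraries lay at 9.03 to 32.9 and the 5% libraries at -11.3, -46.0 and -9.90, so that replicate 2 at 5% CO2 was far from the rest of its group. Without that replicate 201 genes were called, against the 378 reported below. The hairpin was checked first. NR4A3 with LPS read 17.03, 18.2 and 16.7 TPM at 5% CO2 and 12.5, 19.98 and 15.7 TPM at 10% CO2 in shNR4A3 cells, where TPM is transcript abundance corrected for gene length and scaled to the sum over all genes of a library. In shNT cells with LPS the 6 libraries lay between 30.6 and 38.6 TPM, above every shNR4A3 library with LPS. The level reached with LPS was thus lower in shNR4A3 cells and not absent. Without LPS NR4A3 was at or under 0.232 TPM in shNR4A3 cells and at 0.176 to 0.693 TPM in shNT cells. These ranges were separate at 5% CO2 (0.0315 to 0.158 and 0.512 to 0.693 TPM) and overlapped at 10% CO2 (0.185 to 0.232 and 0.176 to 0.374 TPM). Between the CO2 levels the NR4A3 log2 fold change was -0.06 (SE 0.13, adjusted p = 0.852), and the libraries overlapped. NR4A1 gave -0.15 (adjusted p = 0.439) and NR4A2 gave -0.22 (adjusted p = 0.4), and neither was called.

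The 16 monocyte and myeloid markers were all detected, summing to 2670 to 3140 TPM at 5% CO2 and 2410 to 2830 TPM at 10% CO2, and none was called between the CO2 levels. In bulk RNA, fewer cells of a type and less RNA per cell cannot be told apart. Of the 16, 11 had a negative log2 fold change, the median was -0.06 and the range -0.81 to 0.13. The 3 with an unadjusted edgeR p under 0.05, TLR4, CSF1R and CEBPA, gave -0.81 (adjusted p = 0.0752), -0.42 (adjusted p = 0.144) and -0.71 (adjusted p = 0.199), with the 10% libraries wholly below the 5% libraries. The most abundant, SPI1 (the PU.1 factor of myeloid cells), gave a log2 fold change of 0.02 (adjusted p = 0.929). Markers of other lineages were at trace level. T cell markers summed to at most 3.21 TPM, B cell markers to at most 9.53 TPM, epithelial markers to at most 2.05 TPM, fibroblast markers to at most 1.36 TPM and erythroid markers to at most 0.41 TPM. The most abundant T cell, epithelial and fibroblast markers were TRAC, KRT8 and COL1A1, with log2 fold changes of 0.24, 0.37 and -0.46, none of them called. Of the other fibroblast markers tested, DCN gave 0.46 (adjusted p = 0.57) and PDGFRA 1.28 (adjusted p = 0.109), from means of 0.142 to 0.337 TPM, with its 10% libraries wholly above. MS4A1 (CD20), which defines mature B cells, had no count in any of the 6 libraries, and 2 of the erythroid markers had none either.

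Between 10% and 5% CO2, 378 of 17720 tested genes changed (2.13%), at an adjusted p under 0.05 by edgeR's quasi-likelihood test. Of these 165 rose (0.931%) and 213 fell (1.2%). The changes were mostly small. Their median absolute log2 fold change was 0.57, the range was 0.33 to 2.01, and 42 of the 378 genes differed by at least 2-fold. Protein-coding genes made up 359 of them. The median log2 fold change over all tested genes was 0.002. In this comparison 3377 of the 17720 genes had an unadjusted edgeR p under 0.05, the share to set beside such counts in the lists. All 378 genes had 3 libraries at 10% CO2 lying wholly above or wholly below the 3 at 5% in TMM-scaled counts, as did 12.3% and 12.7% of all tested genes. The calls rested on particular libraries: without replicate 1 or replicate 2 at 10% CO2 only 1 gene, LGR4, was called, although all 378 kept the sign of their fold change in each of the 6 fits with a library left out. Every other call named below was therefore lost without either of those libraries. The median absolute log2 fold change of the 378 genes was 0.568 without replicate 1 and 0.515 without replicate 2 at 10% CO2, against 0.565 with all 6 libraries. Counts of called members of a list are those of this edgeR test unless another is named. Values given below with an SE or an adjusted p are log2 fold changes of 10% over 5% CO2 unless stated otherwise. With 3 libraries against 3, an exact two-sided permutation test cannot go below p = 0.1.

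**Figure D1:**
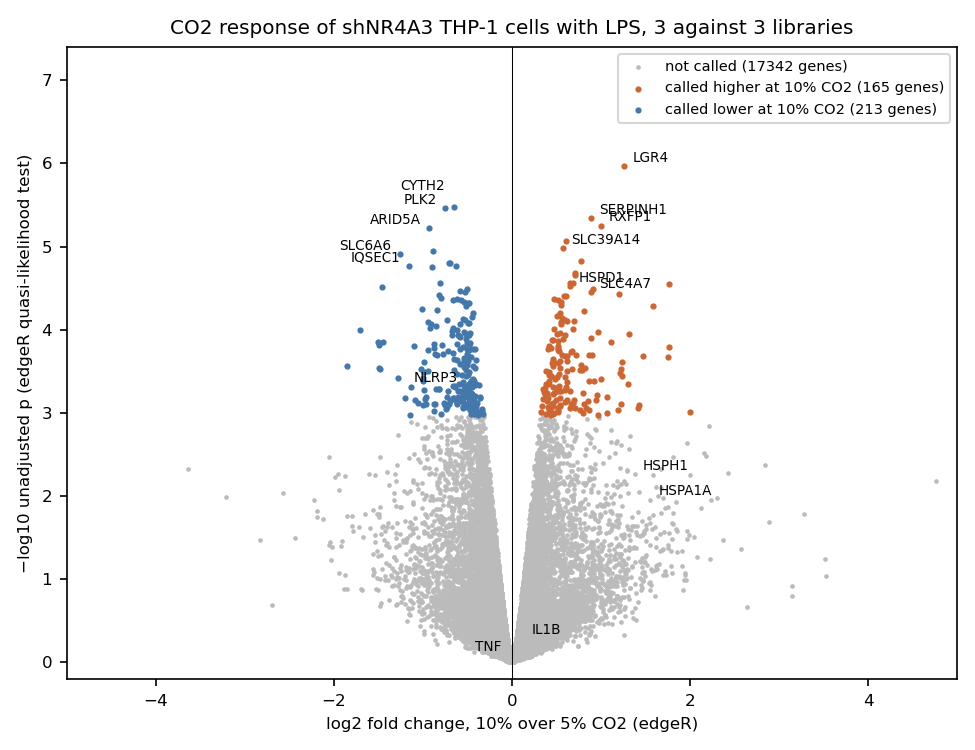
Each point is 1 of the 17720 tested genes, with the log2 fold change of 10% over 5% CO2 on the x axis and the −log10 of the unadjusted edgeR p on the y axis. The 165 genes that rose (orange) are led by LGR4 and SERPINH1 and the 213 that fell (blue) by CYTH2 and PLK2, while HSPA1A and HSPH1 lie far to the right among genes that were not called, and TNF and IL1B lie near 0.

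Heat shock chaperones, mostly of the cytosol and mitochondria, had the highest median log2 fold change of the gene lists drawn up. Of 25 listed, 8 rose and none fell, against 0.931% of all tested genes that rose, and the median log2 fold change of the 25 was 0.66. SERPINH1 (HSP47, the collagen chaperone, chr11:75562056-75572783 on GRCh38) had the smallest p of the group, with 31.8, 37.7 and 44.2 TPM at 5% CO2 and 64.2, 76.9 and 62.6 TPM at 10% CO2. Every library at 10% CO2 lay above every library at 5%, with a log2 fold change of 0.89 (SE 0.11, adjusted p = 0.0177). FKBP4, a co-chaperone of HSP90 in steroid receptor complexes (chr12:2794953-2805423), read 17.2, 23.7 and 19.4 TPM at 5% CO2 and 28.3, 34.9 and 30.1 TPM at 10% CO2 and rose by 0.69 (SE 0.11, adjusted p = 0.0197) on the log2 scale. HSPD1, the HSP60 chaperonin of the mitochondrial matrix (chr2:197486581-197516737), read 563, 531 and 574 TPM at 5% CO2 and 884, 931 and 729 TPM at 10% CO2 and rose by 0.66 (SE 0.10, adjusted p = 0.0197). In both genes the groups were separate, and for HSPD1 the 5% libraries were close together while the 10% libraries were spread. STIP1, which bridges HSP70 and HSP90, rose by 0.60 (SE 0.10, adjusted p = 0.0228). The other chaperones that rose were HSPE1, the HSP10 partner of HSP60, by 0.61, AHSA1, which speeds the ATPase of HSP90, by 0.92, the inducible cytosolic HSP90AA1 by 0.69 and the HSP110 relative HSPA4L by 1.22.

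Other chaperones did not pass the test, and their libraries at 10% CO2 were spread. HSPA1A, the stress-inducible HSP70, read 21.7, 16.7 and 20.2 TPM at 5% CO2 and 59.3, 80.3 and 28 TPM at 10% CO2, so all 3 libraries at 10% CO2 lay above those at 5% but replicate 3 lay close to them. Its log2 fold change was 1.55 (SE 0.41, adjusted p = 0.132). HSPA1A and HSPA1B are near-identical copies whose reads can map to either, so the value of each alone is uncertain. HSPH1 (HSP110) read 68.9, 47.9 and 88.1 TPM at 5% CO2 and 191, 203 and 125 TPM at 10% CO2, again without overlap, with 1.38 (SE 0.31, adjusted p = 0.0961). HSP90AB1, the constitutive HSP90 and the most abundant chaperone of the list, read 2939.8, 2939 and 2968 TPM at 5% CO2 and 3789, 4037 and 3146 TPM at 10% CO2, with 0.36 (SE 0.10, adjusted p = 0.0769). In 20 of the 25 chaperone genes the scaled counts at 10% CO2 lay wholly above those at 5%, which held for 12.3% of all tested genes. HSF1, the factor named above, gave -0.01 (adjusted p = 0.977). The replicate order was not the same for all of them, but in HSPA1A, HSPH1, HSPD1 and HSP90AB1 replicate 3 was the lowest of the 10% libraries. Without that library 218 of all genes were called.

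Among 20 listed endoplasmic reticulum chaperones and genes of the unfolded protein response none was called, where 2.13% of all tested genes were. The median log2 fold change was 0.015 and the members lay between -0.17 and 0.23. SERPINH1, which also resides in the endoplasmic reticulum and rose, was counted among the heat shock chaperones above and not in this list. CALR, a calcium-binding chaperone of that compartment and the most abundant member, gave -0.07 (adjusted p = 0.707). Among 30 tested targets of ATF4, the factor of the integrated stress response, and genes of serine and proline synthesis, edgeR called only PYCR1, the last enzyme of proline synthesis, where DESeq2 called 2 members and 1 fit to all libraries 3. PYCR1 rose, with 53.3, 54.7 and 57.3 TPM at 5% CO2 and 62.7, 72.95 and 75.1 TPM at 10% CO2 and a log2 fold change of 0.40 (SE 0.09, adjusted p = 0.0434). ATF4 itself gave -0.06 (adjusted p = 0.778).

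**Figure D2:**
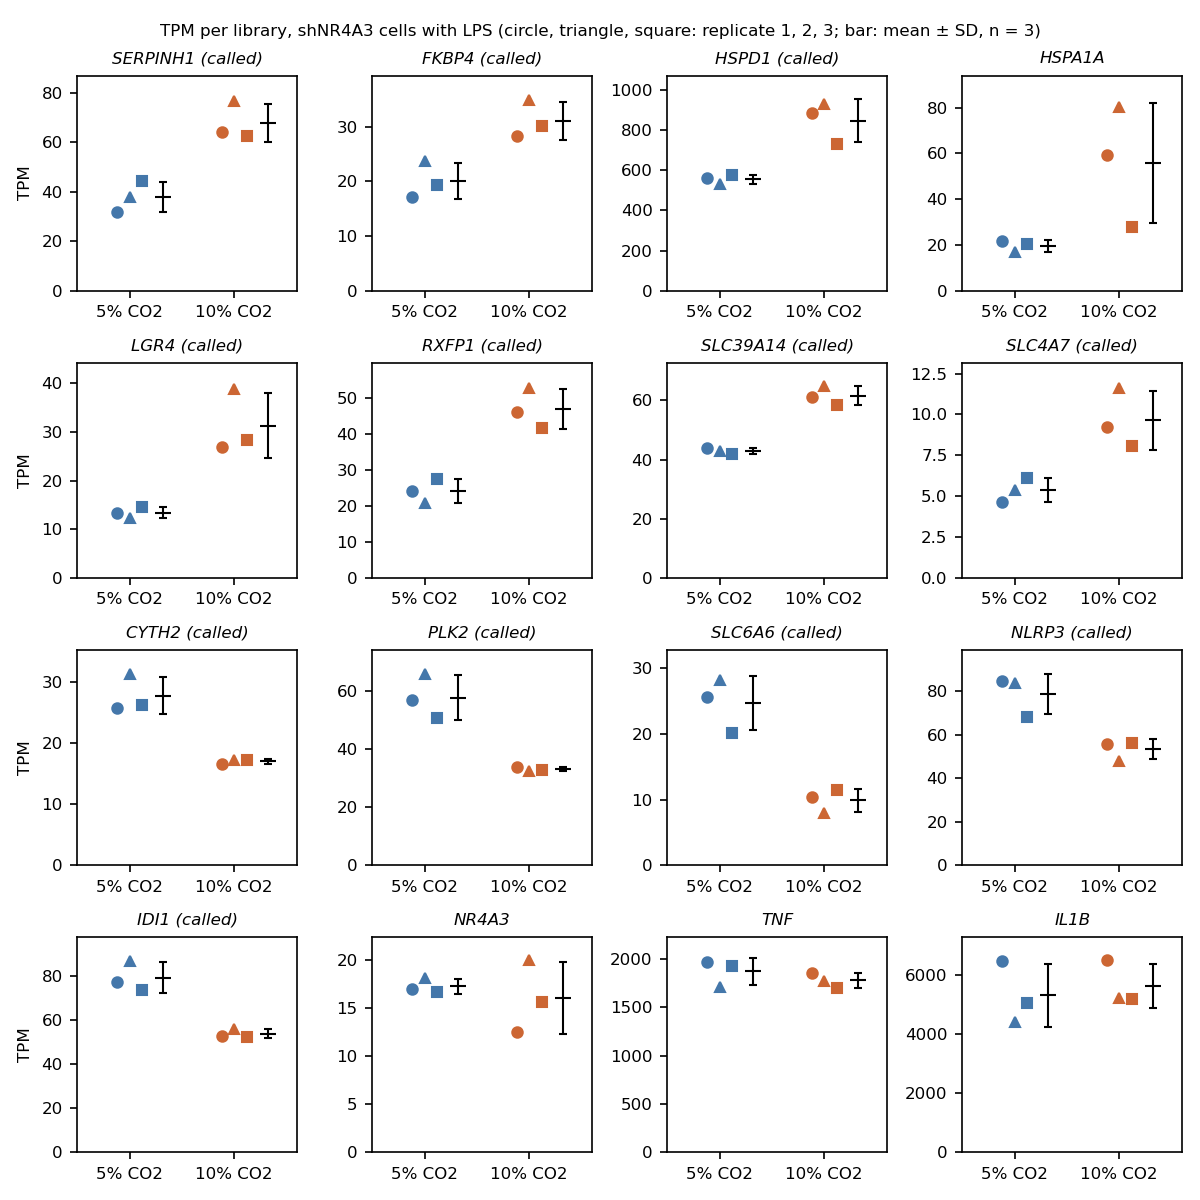
TPM in each of the 6 libraries for 16 genes, with the 2 CO2 levels on the x axis, symbols for the 3 replicates and the mean ± SD beside them. In the 12 genes marked as called, the 3 libraries at 10% CO2 sit wholly above or wholly below the 3 at 5%. HSPA1A separates but is widely spread at 10% CO2, and NR4A3, TNF and IL1B overlap.

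Promoter sequences of RefSeq (build GRCh38.p14) are shown for the genes with the smallest p among the chaperones and in each direction, and for NAT10. Each runs from 250 bases before to 50 after the annotated start, 5′ to 3′ on the strand of the gene, and capitals mark a match to 1 of 5 motifs on either strand: the heat shock element core GAANNTTC bound by HSF1, the cyclic AMP response element TGACGTCA, the E-box CACGTG bound by factors such as MYC and USF1, the ETS core CCGGAAGT, and AAAGGTCA, the NBRE bound by NR4A receptors. None of these motifs holds another. NAT10 was added after the matches were seen, as the next named gene that rose and has an E-box. FKBP4 comes before HSPD1 by p and has no entry in the promoter table used.
SERPINH1, chr11:75562003-75562302, + strand: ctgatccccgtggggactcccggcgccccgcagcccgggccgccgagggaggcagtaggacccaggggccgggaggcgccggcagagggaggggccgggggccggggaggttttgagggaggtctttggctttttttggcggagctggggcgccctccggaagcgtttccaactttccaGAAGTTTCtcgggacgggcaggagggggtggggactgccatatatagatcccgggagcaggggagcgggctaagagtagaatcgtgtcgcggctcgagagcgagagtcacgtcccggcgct
HSPD1, chr2:197500225-197500524, - strand: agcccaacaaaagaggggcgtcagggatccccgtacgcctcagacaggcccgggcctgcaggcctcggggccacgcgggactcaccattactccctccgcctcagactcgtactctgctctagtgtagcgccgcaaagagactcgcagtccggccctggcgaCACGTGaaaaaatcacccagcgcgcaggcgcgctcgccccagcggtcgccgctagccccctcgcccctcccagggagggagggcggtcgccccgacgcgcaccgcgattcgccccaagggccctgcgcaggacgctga
LGR4, chr11:27472741-27473040, - strand: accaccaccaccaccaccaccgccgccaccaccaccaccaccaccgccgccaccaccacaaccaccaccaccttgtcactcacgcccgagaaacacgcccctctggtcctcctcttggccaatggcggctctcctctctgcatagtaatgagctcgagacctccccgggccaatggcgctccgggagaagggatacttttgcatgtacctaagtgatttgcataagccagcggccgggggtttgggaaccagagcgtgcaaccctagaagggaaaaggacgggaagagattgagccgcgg
CYTH2, chr19:48469119-48469418, + strand: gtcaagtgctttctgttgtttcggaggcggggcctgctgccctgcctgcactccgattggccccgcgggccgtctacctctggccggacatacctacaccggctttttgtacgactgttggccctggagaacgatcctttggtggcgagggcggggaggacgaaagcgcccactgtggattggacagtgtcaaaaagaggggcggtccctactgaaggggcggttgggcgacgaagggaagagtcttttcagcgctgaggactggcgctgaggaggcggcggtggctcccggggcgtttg
NAT10, chr11:34105379-34105678, + strand: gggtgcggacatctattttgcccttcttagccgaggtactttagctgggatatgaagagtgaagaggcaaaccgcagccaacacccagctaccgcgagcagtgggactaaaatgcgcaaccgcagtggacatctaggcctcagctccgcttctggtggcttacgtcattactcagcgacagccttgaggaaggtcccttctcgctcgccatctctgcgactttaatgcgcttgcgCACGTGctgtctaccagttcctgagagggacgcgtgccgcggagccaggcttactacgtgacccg
The SERPINH1 window held 1 heat shock element core, starting 71 bases before the start, HSPD1 held an E-box 88 bases before it and NAT10 an E-box 15 bases before it. LGR4 and CYTH2 held none of the 5 motifs.

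Of the tested genes, 12091 had a promoter in the table, among them 125 of those that rose and 169 of those that fell. The heat shock element core lay in 8 of the 23 chaperone promoters present (34.8%), against 4.77% of all tested genes. Of the 7 promoters of called chaperones it lay only in that of SERPINH1 (14.3%). The other 7 matches, named after they were seen, were in CHORDC1, DNAJA1, DNAJB6, HSPA1A, HSPA1B, HSPA8 and HSPB1, none of which was called. Over all genes that rose the share was 5.6%, and over those that fell 2.37%. The E-box was in 26 promoters of genes that rose (20.8%), in 11.2% of those that fell and in 9.74% of all. The cyclic AMP response element was in 4%, 3.55% and 3.04% of the same sets, the ETS core in 8.8%, 4.14% and 8.1%, and the NBRE in 0.8%, 0.592% and 0.777%, which is 1 promoter in each called set. These shares describe letters in a 300-base window and were not tested.

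Genes for ribosome production changed mostly upward where they changed. Of 40 genes of RNA polymerase I and ribosome assembly, 4 rose, 1 fell and 35 were not called, with a median log2 fold change of 0.15. Over all tested genes 0.931% rose and 1.2% fell. POLR1A, the largest subunit of the polymerase that makes ribosomal RNA, read 18.2, 21.4 and 20.8 TPM at 5% CO2 and 26.7, 32.8 and 26.2 TPM at 10% CO2 and rose by 0.56 (SE 0.09, adjusted p = 0.0197). POLR1B, the second subunit, rose by 0.47 (SE 0.09, adjusted p = 0.0299), and the 10% libraries lay above the 5% libraries in both. NAT10, which acetylates cytidine in ribosomal RNA, read 59, 54.04 and 63.5 TPM at 5% CO2 and 82.5, 90.7 and 77.6 TPM at 10% CO2 and rose by 0.55 (SE 0.10, adjusted p = 0.0228). BOP1, which acts in the maturation of the large subunit, rose by 0.37 (SE 0.08, adjusted p = 0.0387). The member that fell was UBTF, which binds ribosomal DNA and helps to recruit the same polymerase: it read 79.6, 114 and 80.6 TPM at 5% CO2 and 56.4, 57.5 and 65.5 TPM at 10% CO2, and fell by 0.55 on the log2 scale (SE 0.11, adjusted p = 0.0366). With a replicate block UBTF was no longer called (adjusted p = 0.0512). RRP9, a protein of the U3 particle that processes ribosomal RNA, gave 0.38 (adjusted p = 0.0527), just outside the threshold, without overlap of its libraries. NPM1 (nucleophosmin), the most abundant member, gave 0.13 (adjusted p = 0.476). URB1, also of the nucleolus but outside the list, read 15.6, 15.3 and 16.3 TPM at 5% CO2 and 24.1, 26.98 and 20.8 TPM at 10% CO2 and rose by 0.66 (SE 0.10, adjusted p = 0.0197).

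**Figure D3:**
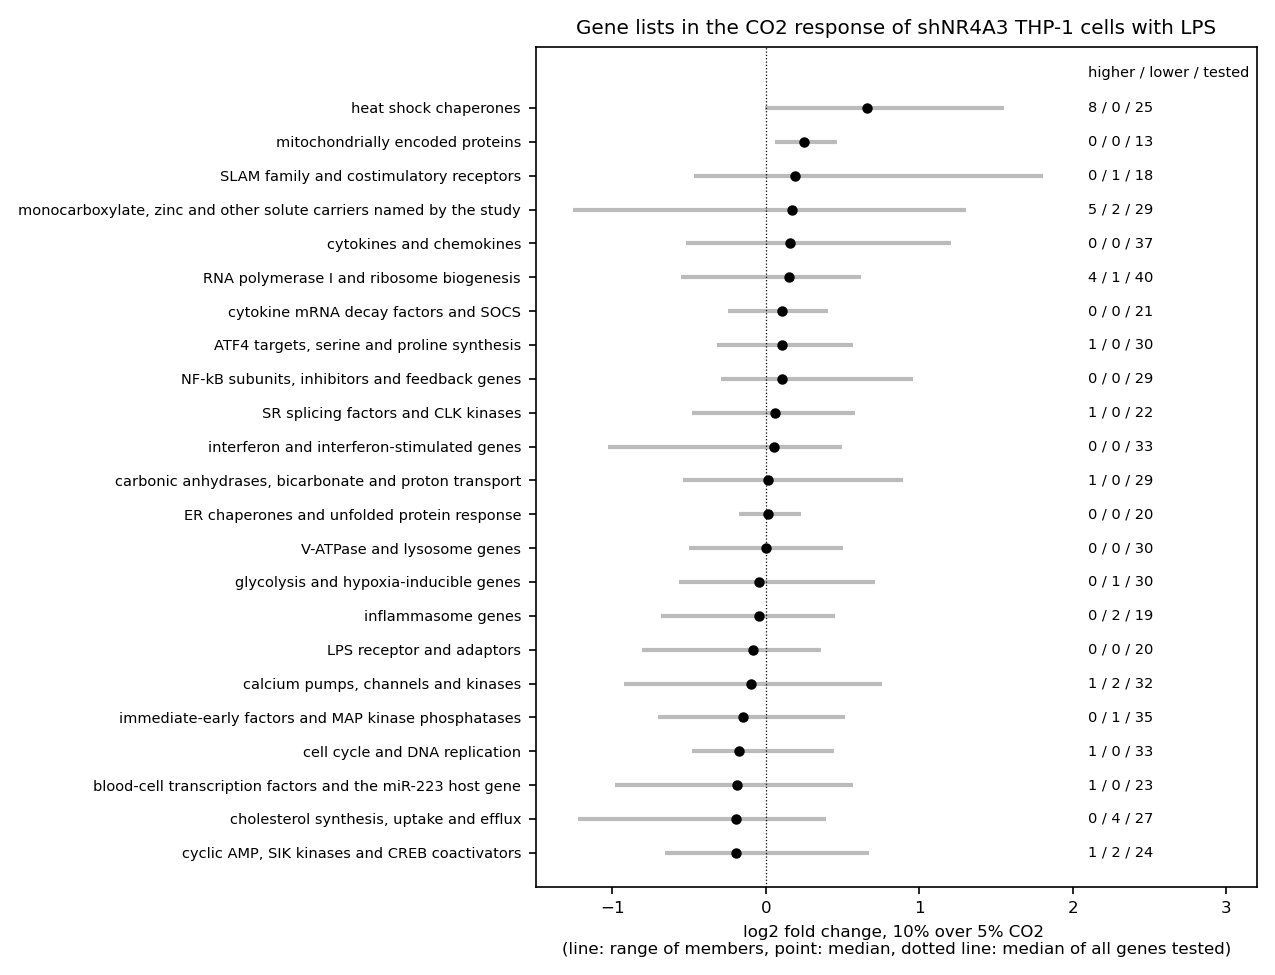
Each line spans the lowest to the highest log2 fold change of the tested members of 1 gene list, the point is their median and the dotted line the median of all tested genes, 0.00. Heat shock chaperones stand to the right at 0.66, and the cyclic AMP and cholesterol lists lie at -0.20 and -0.19. Figures at the right give members called higher, called lower and tested.

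The cholesterol genes that changed all fell. Of 27 tested genes of cholesterol synthesis, uptake and efflux 4 fell (1.2% over all genes), none rose and the median log2 fold change was -0.19. HMGCS1, which makes the precursor of mevalonate, read 190.3, 211 and 160.1 TPM at 5% CO2 and 138, 135 and 135 TPM at 10% CO2 and fell by 0.40 (SE 0.09, adjusted p = 0.0466). IDI1, an isomerase further along the pathway (chr10:1039908-1049170), read 77.3, 86.9 and 73.7 TPM at 5% CO2 and 52.7, 56.2 and 52.5 TPM at 10% CO2 and fell by 0.51 (SE 0.08, adjusted p = 0.0197). SQLE, which oxidises squalene on the way to sterols, fell by 0.47 (SE 0.10, adjusted p = 0.0385), and SREBF1, a factor that switches on lipid synthesis, by 0.41 (SE 0.08, adjusted p = 0.0310). In all 4 genes the libraries at 10% CO2 lay wholly below those at 5%. With 1 fit to all libraries HMGCS1 (adjusted p = 0.0585) and SREBF1 (adjusted p = 0.0875) were no longer called, and with a replicate block SQLE was not (adjusted p = 0.0518). Among members that were not called, named after their values were seen, the cholesterol exporter ABCA1 gave -1.003 (adjusted p = 0.0661) and SREBF2, the main sterol-sensing factor, -0.16 (adjusted p = 0.267).

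Transporters and metal-binding proteins held changes in both directions. The list of 29 tested solute carriers and metallothioneins takes in solute carriers that the study names and other members of such families. Of the 29, 5 rose and 2 fell, where 0.931% and 1.2% of all tested genes did. SLC39A14 (ZIP14), which brings zinc and iron into the cell, read 43.8, 42.8 and 41.9 TPM at 5% CO2 and 61.2, 64.9 and 58.5 TPM at 10% CO2 and rose by 0.57 (SE 0.08, adjusted p = 0.0194). The metallothioneins MT1X, MT1G and MT1E, small proteins that bind zinc and copper, rose by 0.66, 0.76 and 0.59. These genes are close copies of each other, so reads may be shared between them. SLC16A9, of the monocarboxylate carrier family, rose by 1.31 (SE 0.25, adjusted p = 0.0377), from a mean of 3.97 ± 1.65 TPM to 9.64 ± 1.59 TPM (SD, n = 3). The taurine carrier SLC6A6 (chr3:14402576-14489349) read 25.6, 28.3 and 20.2 TPM at 5% CO2 and 10.4, 7.996 and 11.4 TPM at 10% CO2, and fell by 1.26 (SE 0.16, adjusted p = 0.0194), with no overlap between the groups. SLC17A5, which exports sialic acid from lysosomes, read 32.1, 40.8 and 29.4 TPM at 5% CO2 and 21.04, 15.8 and 18.1 TPM at 10% CO2 and fell by 0.83 (SE 0.14, adjusted p = 0.0212). SLC16A3, the lactate exporter MCT4 and the most abundant of the list, gave -0.25 (adjusted p = 0.241).

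Proteins that handle CO2, bicarbonate and protons were nearly all without a call. Of 29 tested members 1 rose, where 0.931% of all tested genes did. SLC4A7, a carrier that brings sodium and bicarbonate into the cell (chr3:27372721-27484420), read 4.65, 5.35 and 6.09 TPM at 5% CO2 and 9.21, 11.6 and 8.07 TPM at 10% CO2. Its lowest library at 10% CO2 lay above its highest at 5%, and the log2 fold change was 0.89 (SE 0.14, adjusted p = 0.0197). CA2, the carbonic anhydrase of the cytosol that interconverts CO2 and bicarbonate and the most abundant member, read 3413, 3957 and 2653 TPM at 5% CO2 and 3109, 3089.7 and 2905 TPM at 10% CO2, which overlapped, with -0.08 (SE 0.12, adjusted p = 0.751). In the list of 30 V-ATPase and lysosome genes none was called, where 2.13% of all tested genes were. The lysosomal protease CTSZ, its most abundant member, gave 0.03 (adjusted p = 0.899).

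Calcium and cyclic AMP signalling each had members in both directions. Of 32 calcium genes 1 rose and 2 fell, where 0.931% and 1.2% of all tested genes did. The Golgi calcium pump ATP2C1 rose by 0.62 (SE 0.11, adjusted p = 0.0228). The kinase CAMK2G fell by 0.73 (SE 0.13, adjusted p = 0.0228) and the channel subunit CACNA2D3 by 0.92 (SE 0.16, adjusted p = 0.0237). The calmodulin gene CALM3 gave 0.05 (adjusted p = 0.781). Of 24 genes of the cyclic AMP pathway 1 rose and 2 fell, to be set against the same shares. SIK3, a kinase that phosphorylates CREB coactivators, rose by 0.67 (SE 0.13, adjusted p = 0.031), a call lost with a replicate block (adjusted p = 0.0697). ADCY3, which makes cyclic AMP, fell by 0.45 (SE 0.08, adjusted p = 0.0228) and PDE4A, which degrades it, fell by 0.59 (SE 0.12, adjusted p = 0.0377). The prostaglandin receptor PTGER4, the most abundant of that list, gave -0.22 (adjusted p = 0.442).

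No LPS-induced cytokine gene passed the test between CO2 levels. None of 37 tested cytokines and chemokines was called by edgeR, where 2.13% of all genes were. A list of 37 genes is too short to tell no call from that share. Of the 37, 5 had an unadjusted edgeR p under 0.05, as had 3377 of all 17720 tested genes. DESeq2 called 0 of the 37 and 1 fit to all libraries called 2. Their median log2 fold change was 0.16. TNF read 1964, 1712 and 1929 TPM at 5% CO2 and 1856, 1775 and 1702 TPM at 10% CO2, with -0.02 (SE 0.10, adjusted p = 0.923). IL1B, the most abundant of the list, read 6508, 4415 and 5054 TPM at 5% CO2 and 6520.4, 5226 and 5199.7 TPM at 10% CO2, with 0.13 (SE 0.19, adjusted p = 0.763), and in both genes the groups overlapped. CXCL8 gave -0.15 (adjusted p = 0.82), IL6 0.49 (adjusted p = 0.66), IL10 -0.52 (adjusted p = 0.636), CCL3 0.01 (adjusted p = 0.984) and CCL4 0.29 (adjusted p = 0.395). CCL3 and CCL4 have near-identical copies that may share their reads. PTGS2 (COX-2), the inducible enzyme of prostaglandin synthesis, gave -0.07 (adjusted p = 0.95). The standard errors bound what could be seen: 0.10 for TNF, but 0.27 for CXCL8 and 0.50 for IL6. The scaled counts at 10% CO2 lay wholly above those at 5% in 5 of the 37 genes, against 12.3% of all tested genes. Among them, named after their values were seen, IL23A, a subunit of interleukin 23, gave 0.83 (adjusted p = 0.223), IL12B, which interleukins 12 and 23 share, 0.85 (adjusted p = 0.241) and EBI3, a subunit of interleukin 27, 0.98 (adjusted p = 0.282).

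Upstream of the cytokines few genes were called, as was so over all tested genes. edgeR called no member among 29 tested NF-kB subunits, inhibitors and feedback genes or 20 LPS receptor and adaptor genes. It also called none among 33 interferon and interferon-stimulated genes or 21 factors of cytokine mRNA decay and SOCS inhibitors. Over all tested genes it called 2.13%, and lists of 20 to 33 genes are too short to tell no call from that share. An unadjusted edgeR p under 0.05 was found for 4, 5, 6 and 4 members of these lists, and for 3377 of all 17720 tested genes. DESeq2 called 1, 2, 1 and 0 members of the same lists. NFKBIA, the inhibitor that NF-kB induces to limit itself, read 1818, 1636 and 1674 TPM at 5% CO2 and 1680.2, 1657 and 1605 TPM at 10% CO2, with -0.0049 (SE 0.09, adjusted p = 0.984). The receptor-linked kinase IRAK1 gave -0.09 (adjusted p = 0.662), IFI6 0.12 (adjusted p = 0.531) and the RNA-degrading feedback factor ZC3H12A 0.12 (adjusted p = 0.44). Of 35 immediate-early factors and phosphatases, edgeR called only JUND, a subunit of AP-1, and DESeq2 called 3. JUND read 487, 531 and 390.3 TPM at 5% CO2 and 314, 289.8 and 330.0 TPM at 10% CO2 and fell by 0.54 (SE 0.11, adjusted p = 0.0310), a call that was lost with 1 fit to all libraries (adjusted p = 0.176). JUN gave -0.23 (adjusted p = 0.172).

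In the inflammasome list 2 of 19 tested genes fell and none rose, where 1.2% of all tested genes fell. NLRP3, the sensor that assembles the caspase-1 platform (chr1:247416156-247449108), read 84.6, 83.7 and 68.3 TPM at 5% CO2 and 55.8, 48.2 and 56.1 TPM at 10% CO2, and fell by 0.51 (SE 0.11, adjusted p = 0.0383). DPP8, a peptidase that restrains the related sensor NLRP1, read 20.05, 26.2 and 17.5 TPM at 5% CO2 and 13.1, 14.6 and 13.95 TPM at 10% CO2 and fell by 0.56 (SE 0.11, adjusted p = 0.0336). All 3 libraries at 10% CO2 lay below those at 5% in both genes. With 1 fit to all libraries NLRP3 was no longer called (adjusted p = 0.07). TXNIP, the most abundant of the list, gave 0.29 (adjusted p = 0.456). Among 18 SLAM family and costimulatory receptors CD244 fell by 0.47 (SE 0.10, adjusted p = 0.0376), a call lost with 1 fit to all libraries (adjusted p = 0.185). SLAMF1, a self-ligand receptor of immune cells, read 0.736, 0.209 and 1.41 TPM at 5% CO2 and 2.13, 3.64 and 2.65 TPM at 10% CO2, low levels that did not overlap, with 1.81 (SE 0.46, adjusted p = 0.079). CD83 gave 0.09 (adjusted p = 0.76).

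Other lists held single calls by edgeR, a share near the 2.13% of all genes. CCND1 (cyclin D1) rose by 0.39 (SE 0.08, adjusted p = 0.0315) among 33 cell cycle genes, of which 25 had a negative log2 fold change, with a median of -0.17. Of the 33, 18 had an unadjusted edgeR p under 0.05, as had 3377 of all 17720 tested genes. The replication helicase subunit MCM3 gave -0.19 (adjusted p = 0.235). ETS1 was the only one of 23 blood-cell factors that edgeR called, where DESeq2 called 7 and 1 fit to all libraries 2. It read 32.5, 31.1 and 37.9 TPM at 5% CO2 and 49.3, 48.95 and 47.1 TPM at 10% CO2, without overlap, and rose by 0.57 (SE 0.10, adjusted p = 0.0228). ARNT, the shared partner of hypoxia-inducible factors, fell by 0.41 (SE 0.08, adjusted p = 0.0279) among 30 glycolysis and hypoxia genes, in which ENO1 gave -0.05 (adjusted p = 0.793). SRPK1, a kinase that phosphorylates splicing factors, rose by 0.44 (SE 0.10, adjusted p = 0.0489) among 22 splicing genes, and SRSF1 gave 0.09 (adjusted p = 0.586). Of 9 genes that the study singles out as sensitive to CO2 in every line, a choice made on these samples and so no independent evidence, 3 rose (SERPINH1, POLR1A and DPH5) and 4 fell (CYTH2, SLC6A6, A4GALT and DPP8). SRSF5, a splicing factor, gave -0.48 (adjusted p = 0.079) and RRP9 the value above. DPH5, an enzyme of diphthamide synthesis on elongation factor 2, rose by 0.61 (SE 0.13, adjusted p = 0.0385). A4GALT, a glycolipid transferase, fell by 0.71 (SE 0.16, adjusted p = 0.0442), a call lost with 1 fit to all libraries (adjusted p = 0.117).

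The genes with the smallest p lay partly outside these lists. LGR4, a receptor for R-spondins that strengthens Wnt signalling (chr11:27365961-27472775), read 13.3, 12.4 and 14.6 TPM at 5% CO2 and 26.8, 38.9 and 28.3 TPM at 10% CO2, so even the lowest library at 10% CO2 was well above the highest at 5%. It rose by 1.26 (SE 0.13, adjusted p = 0.0177) and stayed called whichever library was left out. RXFP1, the receptor for relaxin, read 24.3, 20.8 and 27.4 TPM at 5% CO2 and 46.2, 52.8 and 41.7 TPM at 10% CO2 and rose by 1.00 (SE 0.13, adjusted p = 0.0177). RBM14, a coactivator that binds RNA, rose by 0.78 (SE 0.11, adjusted p = 0.0194), SEPTIN11, a filament-forming GTPase, by 0.61 (SE 0.08, adjusted p = 0.0194), RPE, an enzyme of the pentose phosphate pathway, by 0.70 (SE 0.11, adjusted p = 0.0197), and NUDCD1 by 0.70 (SE 0.11, adjusted p = 0.0197).

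On the lower side CYTH2, which activates the small GTPases of the ARF family (chr19:48469032-48482314), read 25.7, 31.2 and 26.2 TPM at 5% CO2 and 16.5, 17.2 and 17.2 TPM at 10% CO2. The 10% libraries were tightly grouped below the 5% libraries, and the gene fell by 0.65 (SE 0.08, adjusted p = 0.0177). IQSEC1, another ARF activator, read 17.5, 22.5 and 16.2 TPM at 5% CO2 and 7.93, 6.46 and 9.83 TPM at 10% CO2 and fell by 1.15 (SE 0.16, adjusted p = 0.0194), so that its highest library at 10% CO2 stayed below its lowest at 5%. PLK2, a polo-like kinase (chr5:58453982-58460260), read 56.96, 65.8 and 50.6 TPM at 5% CO2 and 33.9, 32.6 and 32.9 TPM at 10% CO2 and fell by 0.75 (SE 0.09, adjusted p = 0.0177). ARID5A, which binds and stabilises inflammatory mRNAs, read 62.6, 70.3 and 50.1 TPM at 5% CO2 and 30.3, 28.1 and 34.1 TPM at 10% CO2, again without overlap, and fell by 0.93 (SE 0.12, adjusted p = 0.0177). CD1D, which presents lipids to natural killer T cells, fell by 0.90 (SE 0.13, adjusted p = 0.0194) and NKD2, an antagonist of Wnt signalling, by 0.71 (SE 0.10, adjusted p = 0.0194). SMIM14, NARF and WDR37 fell by 0.89, 0.70 and 0.63 on the same scale. With 1 fit to all libraries NKD2 was no longer called (adjusted p = 0.0525).

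The same genes were then read in shNT cells with LPS, from a separate set of 6 libraries. There 1452 of 17720 genes were called (8.19%), a count that dropped to 334 without 10% CO2 replicate 2 and to 370, 476 and 674 without 5% CO2 replicates 1 and 2 and 10% CO2 replicate 3. Of the 165 genes that rose in shNR4A3 cells 126 rose in shNT cells, which is 76.4% of the shNR4A3 list and 15.9% of the shNT list, and of the 213 that fell 120 fell (56.3% and 18.2%). In shNT cells the median log2 fold change of the 165 was 0.55 (0.57 in shNR4A3 cells) and that of the 213 was -0.50 (-0.56). Since the genes were picked by their values in shNR4A3 cells, the slightly larger medians there are no result. LGR4 gave 0.98 in shNT cells, SERPINH1 0.69, RXFP1 1.12, CYTH2 -0.77, PLK2 -0.73 and SLC6A6 -1.17. HSPH1 gave 1.44 and HSPA1A 0.73, where the shNR4A3 values were 1.38 and 1.55. Neither gene was called in either line. For HSPA1A the interaction test described next gave 0.84 (SE 0.53, unadjusted p = 0.147 by edgeR).

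**Figure D4:**
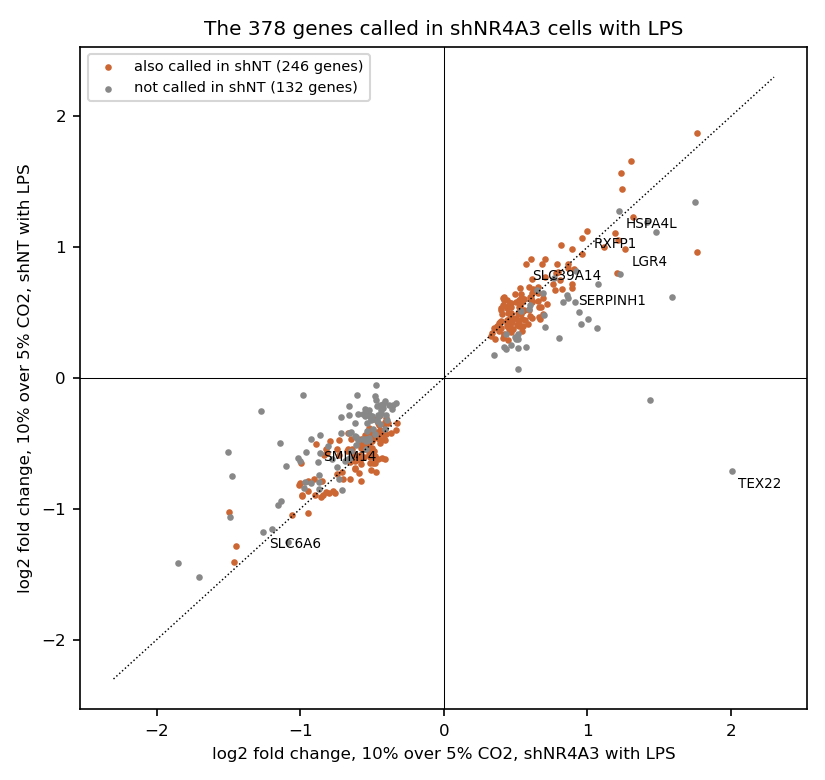
Each point is 1 of the 378 called genes, with the log2 fold change of 10% over 5% CO2 in shNR4A3 cells on the x axis and in shNT cells on the y axis (both with LPS), and the diagonal dotted. The 246 genes also called in shNT cells (orange) lie along the diagonal, which their being called in both lines largely fixes. TEX22 lies off the diagonal at 2.01 and -0.71.

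Whether CO2 acted differently in the 2 lines was tested with an interaction term. edgeR called 0 of 17720 genes (0%), and so did DESeq2. An unadjusted edgeR p under 0.05 was found for 370 of the 17720 genes. With 3 libraries in each condition, the lack of a call does not show that the 2 lines responded alike. The 5 genes with the smallest p were MT-TE, CLDN3, MAPK8IP2, PRX and TEX22. MT-TE, a mitochondrial transfer RNA, had an interaction value of -1.37 (SE 0.30, unadjusted p = 0.000317 by edgeR), with 118, 109.7 and 133 TPM at 5% CO2 and 84.4, 94.6 and 117 TPM at 10% CO2 in shNR4A3 cells. Its log2 fold change was 1.14 in shNT cells (edgeR adjusted p = 0.0097) and -0.24 in shNR4A3 cells (adjusted p = 0.632). The other 4 were low: TEX22 read 0.391, 0.471 and 0.295 TPM at 5% CO2 and 1.73, 1.99 and 0.785 TPM at 10% CO2, MAPK8IP2 and PRX were under 1.6 TPM in each of the 6 shNR4A3 libraries with LPS, and CLDN3 in the same cells had no count in the 3 libraries at 5% CO2 and at most 0.571 TPM at 10%. PRX gave -0.90 in shNT cells (edgeR adjusted p = 0.0157) and 0.22 in shNR4A3 cells (adjusted p = 0.684). TEX22 was called only in shNR4A3 cells, and MAPK8IP2 and CLDN3 in neither line.

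Mitochondrially encoded proteins, subunits of the respiratory chain, gave lower values in shNR4A3 than in shNT cells without passing that test. In shNR4A3 cells with LPS edgeR called none of 13 and DESeq2 2, and 4 had an unadjusted edgeR p under 0.05. The log2 fold changes were 0.06 to 0.47, with a median of 0.25. In shNT cells with LPS the median was 1.07 and 1 of 13 rose. The interaction had an unadjusted edgeR p under 0.05 for 8 of the 13, against 370 of all 17720 tested genes, and an adjusted p of 1 for all. The 13 are transcribed from the same mitochondrial genome, so the 8 are not independent observations. MT-CO1, a catalytic subunit of cytochrome oxidase, read 8266, 8135 and 9352 TPM at 5% CO2 and 11594, 6601 and 11453 TPM at 10% CO2, with 0.26 (SE 0.24, adjusted p = 0.618) in shNR4A3 cells and 1.28 in shNT cells (interaction unadjusted p = 0.0435 by edgeR). MT-ATP6, the most abundant, read 12860.3, 13614 and 13215 TPM at 5% CO2 and 17032, 11529.7 and 16305 TPM at 10% CO2. In both genes replicate 2 at 10% CO2 was the lowest of all 6 libraries and the other 10% libraries were the highest. The share of all counts from the mitochondrial genome followed the same order, at 1.68% to 1.88% at 5% CO2 and 2.36%, 1.54% and 2.37% in replicates 1 to 3 at 10%, and the part of library preparation in it was not tested. Mitochondrial genes have copies in the nuclear genome, which may share reads.

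**Figure D5:**
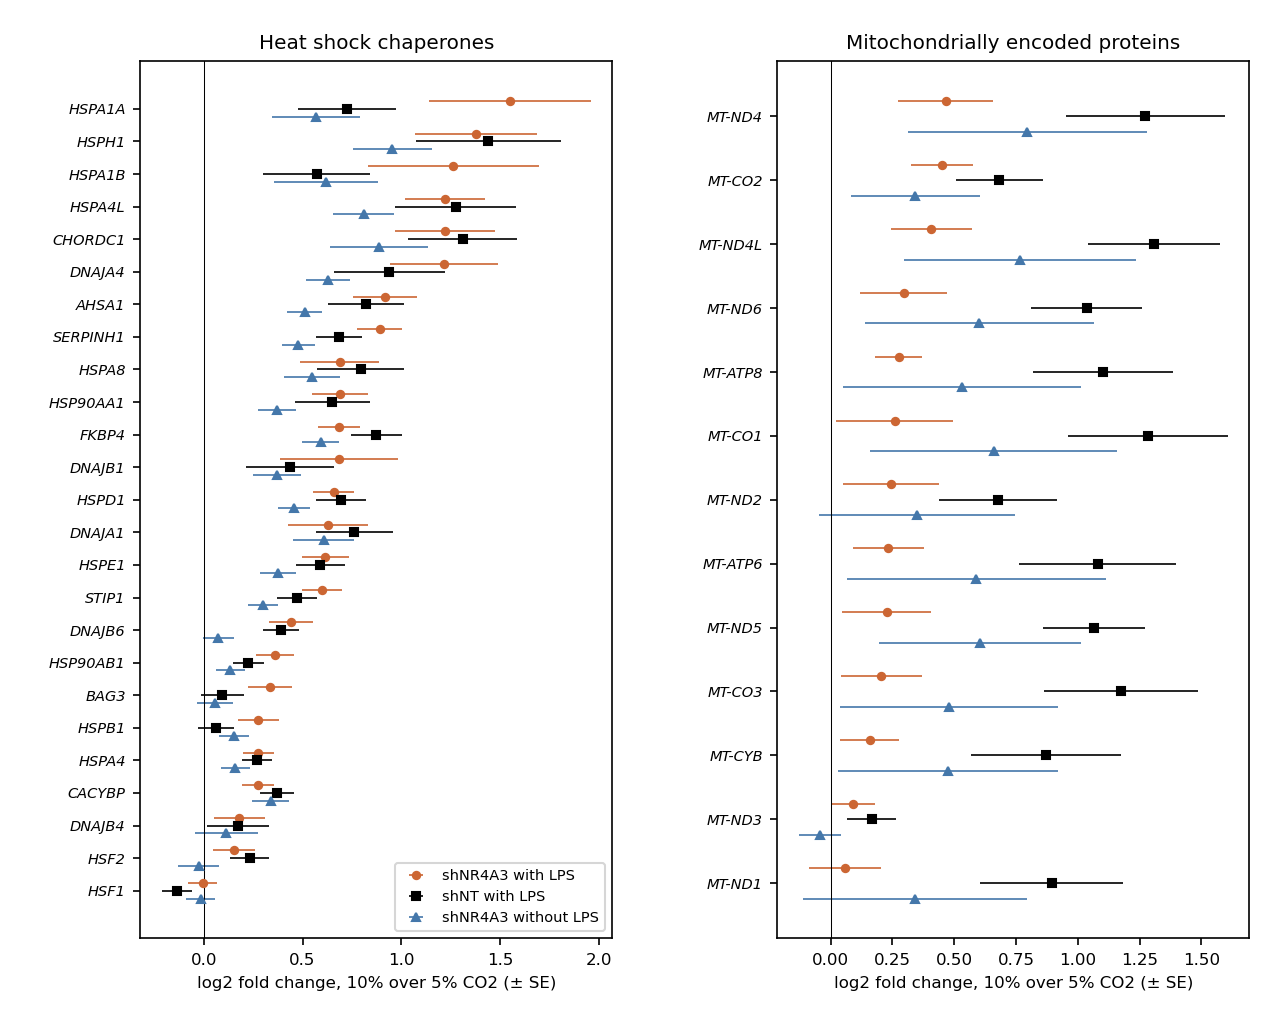
Log2 fold change of 10% over 5% CO2 (± SE, 3 against 3 libraries) for 25 heat shock chaperones and 13 mitochondrially encoded proteins in shNR4A3 cells with LPS (orange), shNT cells with LPS (black) and shNR4A3 cells without LPS (blue). Chaperones have medians of 0.66, 0.59 and 0.38 in the 3 comparisons, in that order, while mitochondrial genes have medians of 0.25, 1.07 and 0.53.

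Without LPS, 200 of 17720 genes were called in shNR4A3 cells (1.13%). That count became 0 when the second 10% CO2 library was left out, 70 and 106 when the first or the third was, and 365 and 41 when the first or second library at 5% CO2 was. With the replicate number as a block it was 1073. Of the genes that rose with LPS, 43 also rose without it (26.1% of the LPS list and 43.4% of the list without LPS), and of those that fell 35 fell (16.4% and 34.7%). CYTH2, SLC39A14, SERPINH1 and SLC6A6 were called in both states, with log2 fold changes of -0.62, 0.59, 0.48 and -0.86 without LPS. For the interaction of CO2 with LPS edgeR called 0 genes (0%) and DESeq2 8, and 995 genes had an unadjusted edgeR p under 0.05. LGR4 had the smallest p: its fold change was 0.03 without LPS and the difference between the states was 1.24 (SE 0.19, adjusted p = 0.0745). That interaction of LGR4 was called with DESeq2 (adjusted p = 4.05e-05), a replicate block (0.0175), 1 fit to all libraries (0.0294) and no filter on low counts (3e-09), and in 2 of the 12 fits with a library left out, where it was 0.0302 to 0.49. USP12, a deubiquitinase, SIK3 and BTG2, an antiproliferative early gene, gave interaction values of 0.93, 0.76 and 0.66, and the long non-coding RNA LINC02982 gave -1.13, with adjusted p of 0.589 to 0.665. USP12 rose with LPS by 0.87 (SE 0.14, adjusted p = 0.0266), a call lost with a replicate block (adjusted p = 0.0633). BTG2 with LPS gave 0.06 (adjusted p = 0.777) and LINC02982 -0.82 (adjusted p = 0.0769).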

How the data were processed

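Polyadenylated RNA of 36 THP-1 libraries was sequenced as paired 150-base reads. Per the study's methods, the submitters' processing notes and the file headers, the authors used Trimmomatic 0.36 for trimming and STAR 2.5.2b for alignment to GRCh38, and deposited whole-number counts per gene made with featureCounts (Subread 1.5.2), 1 library per file and without normalization. The annotation release and strand setting are not given in the sources used here, so overlapping antisense genes cannot be told apart. Of 57500 gene IDs, 56410 (98.1%) were matched to a symbol.

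Counts were tested with edgeR 4.0.16 in R 4.3.3 (TMM scaling, robust quasi-likelihood F test, filterByExpr over the 12 conditions, 17720 genes, Benjamini-Hochberg), as 10% against 5% CO2 over 6 libraries and, for interactions, over 12. An adjusted p under 0.05 is called. SE is the absolute log2 fold change over the root of F. The study used DESeq2's Wald test, here an alternative (1.42.0). TPM was computed from counts and the deposited gene lengths. The scripts were tested on simulated data. Also tried were DESeq2's size factors (RLE), scaling to library size alone, no filter, at least 1 CPM in every library of a condition, a replicate block, 1 fit to all libraries and each library left out.

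Genes were named by rule: the 10 smallest p in each direction without overlapping libraries, up to 4 called members and the most abundant member of each list, 27 fixed genes, and 5 genes per interaction. The conditions, lists and rule were chosen with earlier results of these data known. SOD2 had no symbol match, and 1 gene named by the rule is not reported here.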

Additional observations from a re-analysis of the deposited data

How the results depend on the processing

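The number of genes called in shNR4A3 cells with LPS, 378 by edgeR with TMM scaling, was 382 with RLE size factors and 518 with a replicate block. It became 167 with library size only, 885 with DESeq2, 1402 with no filter on low counts, 247 with at least 1 CPM in every library of a condition and 860 with 1 fit to all libraries, and lay between 1 and 358 with each library left out: 125, 201 and 358 without 5% CO2 replicates 1, 2 and 3, and 1, 1 and 218 without 10% CO2 replicates 1, 2 and 3. DESeq2 called 371 of the 378 genes, the replicate block 328 and the fit to all libraries 329. The replicate numbers were checked for pairing in the deviations from the condition means (genes at 10 CPM or more). Same-numbered libraries, replicates 1 to 3, correlated at 0.651, 0.068 and -0.083. The values were 0.502, 0.161 and 0.1 without LPS and 0.629, -0.234 and -0.096 in shNT cells with LPS. Replicate 1 thus correlated with its own number in each comparison, while not every library correlated best with its own. Without LPS the 200 calls became 550 with DESeq2, 823 with no filter, 1073 with the replicate block, 107 with 1 fit to all libraries and 0 to 365 with a library left out. The 1452 calls of shNT cells became 2238 with no filter and 334 to 2148 with a library left out. For the line interaction every setting gave 0. For the LPS interaction the 0 became 8 with DESeq2, 89 with no filter, 5 with the replicate block, 1 with 1 fit to all libraries and 0 to 1 with a library left out. Over the named genes and all alternatives, 1133 values kept their direction and side of the threshold, 179 lost a call, 34 gained one and 31 changed sign. The sign changed only in uncalled ones. CCL3 went from 0.01 to -0.0082 with library size only and -0.0099 with no filter. With libraries left out the log2 fold changes spanned 0 for CALR (-0.13 to 0.0017), ATF4 (-0.14 to 0.0226), IL1B (-0.0201 to 0.34), NFKBIA (-0.0712 to 0.0781), IRAK1 (-0.15 to 0.0161), CD83 (-0.0364 to 0.22), CA2 (-0.22 to 0.0111), CTSZ (-0.0444 to 0.11), SPI1 (-0.0820 to 0.12), TRAC (-0.21 to 0.49), NR4A3 (-0.22 to 0.0784), TNF (-0.12 to 0.0481), IL6 (-0.0102 to 0.97), CXCL8 (-0.37 to 0.14), CCL3 (-0.10 to 0.21) and PTGS2 (-0.35 to 0.37). The cause of these changes was not tested. The chaperone list kept a median of 0.64 to 0.66 over the scalings and 0.51 to 0.74 with a library left out, with 0 to 16 members called.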

Other observations

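Several further groups were noticed among the called genes, and the lists below were written after their values were seen. None was tested as a set. The TRiC chaperonin, a ring of 8 subunits that folds actin and tubulin, had 3 subunits that rose, where 0.931% of all tested genes did (5 were called by DESeq2): CCT3 by 0.48 (SE 0.08, adjusted p = 0.0237), CCT4 by 0.40 (SE 0.09, adjusted p = 0.041) and CCT6A by 0.39 (SE 0.09, adjusted p = 0.0489). The other 5 gave 0.14 to 0.34, and in all 8 the scaled counts at 10% CO2 lay above those at 5%. Of 7 genes of diphthamide synthesis, DPH5 and DPH2 rose, DPH2 by 0.34 (SE 0.08, adjusted p = 0.0447).

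Of 22 autophagy genes 4 fell and none rose, where 1.2% of all tested genes fell, and DESeq2 and 1 fit to all libraries called 4 each: the kinase ULK1 by 0.46, its partner ATG13 by 0.58, the phosphoinositide reader WIPI2 by 0.48 and the ATG8 protein GABARAPL1 by 0.76, with adjusted p of 0.0268, 0.0197, 0.0197 and 0.0442. Of 19 known targets of p53, PLK2, CCNG1, RRM2B and DDB2 fell and none rose, the last 3 by 0.49, 0.87 and 0.95, while CDKN1A gave -0.19 (adjusted p = 0.272) and the median of the list was -0.01. DESeq2 called 5 members of the p53 list and 1 fit to all libraries 4. In shNT cells with LPS the medians of the autophagy and p53 lists were -0.12 and -0.01. All the called genes named here lost their call without 10% CO2 replicate 1 or 2.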
